A study of Mus musculus with 8 samples.

Results

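The 9 apolipoprotein genes Apoa1, Apoa2, Apoa4, Apoa5, Apob, Apoc1, Apoc2, Apoc3 and Apoe, together with Mttp, were followed in liver RNA as 10 of the 52551 rows of the count files. They were taken by symbol, as proteins of circulating lipoproteins and the transfer protein that loads lipid onto one of them. The 4 PiZ/Chop-/- livers came from male C57BL/6 mice aged 6 weeks that carry PiZ, a transgene for the misfolding Z variant of human alpha-1 antitrypsin, and lack Chop (Ddit3), the gene of a transcription factor induced by endoplasmic reticulum (ER) stress. They were set against 4 PiZ livers of the same sex, age and strain, in which Chop was left intact. Both groups carry the transgene, but its transcript was lower in PiZ/Chop-/- livers. Messenger RNA was read from its 3' end with QuantSeq. Wild-type livers, named in the design, were not analysed here.

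Apolipoproteins coat the lipid droplets that carry fat and cholesterol in plasma. Hepatocytes build very low density lipoprotein (VLDL) around a single molecule of apolipoprotein B in the ER, where microsomal triglyceride transfer protein, the product of Mttp, adds lipid to the growing chain. The smaller, exchangeable apolipoproteins join VLDL or high density lipoprotein (HDL) and set how fast the particles are broken down and cleared. The liver secretes them through the same ER in which the Z protein is retained.

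Total counts per library ran from 1850275 to 2375907 in PiZ/Chop-/- livers and from 1650260 to 3064385 in PiZ livers, and the test covered 8669 genes. Ddit3 had 3 to 9 counts in the PiZ/Chop-/- libraries and 180 to 595 in the PiZ libraries, which matches the labels. SERPINA1, the transgene, had 637, 554, 576 and 712 CPM in the PiZ/Chop-/- libraries and 1568, 950.2, 1441 and 1845 CPM in the PiZ libraries. It fell by 1.23 on the log2 scale in PiZ/Chop-/- (SE 0.22; adjusted p = 0.00873 with edgeR), and had -1.19 (adjusted p = 0.0575) without PiZ/Chop-/- library 3. The part of this difference in the levels of the apolipoprotein genes was not tested. PiZ library 4 had the lowest mean correlation with its own group (0.914), PiZ library 1 followed with 0.931, and the other 6 libraries had 0.932 to 0.951. Separate animals are not stated for the libraries, so the p-values describe variation among libraries, which may be technical. Levels are CPM, read counts scaled to library size. The levels were not divided by transcript length because the method reads one place per transcript. Each log2 fold change has PiZ/Chop-/- on top and PiZ below.

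Of the 10 genes, 7 lie in clusters of neighbouring genes. Apoa1, Apoc3, Apoa4 and Apoa5 share 43.3 kb of chromosome 9 (mm10), Apoe, Apoc1 and Apoc2 share 27.6 kb of chromosome 7, and Apob, Apoa2 and Mttp lie alone on chromosomes 12, 1 and 3. Stretches just upstream of genes of the chromosome 9 cluster are shown, because these neighbours include both the widest positive difference of the set (Apoa5) and a negative one (Apoa4). They come from RefSeq (build GRCm38.p6, plus strand) and end before the first annotated transcript base. Capitals mark a match to one of the motifs listed after them.
Apoa1, chr9:46228380-46228579: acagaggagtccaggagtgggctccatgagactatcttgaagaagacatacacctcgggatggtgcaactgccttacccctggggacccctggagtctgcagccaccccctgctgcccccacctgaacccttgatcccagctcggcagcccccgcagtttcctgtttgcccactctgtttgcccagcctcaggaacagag
Apoa4, chr9:46240594-46240695: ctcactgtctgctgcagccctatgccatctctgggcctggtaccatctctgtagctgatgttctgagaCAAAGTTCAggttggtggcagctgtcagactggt
Apoa5, chr9:46268383-46268607: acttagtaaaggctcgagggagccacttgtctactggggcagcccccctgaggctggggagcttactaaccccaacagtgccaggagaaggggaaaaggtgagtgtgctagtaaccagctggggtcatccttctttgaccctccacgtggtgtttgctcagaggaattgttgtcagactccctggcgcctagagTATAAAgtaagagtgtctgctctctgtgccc

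No RefSeq window was at hand for Apoc1 and Apoc3, which were not searched. For the other 8 of the 10 genes, windows of 250 bases upstream of the RefSeq transcript start were used. These were searched on both strands for the composite element TGATGNAAT bound by pairs of C/EBP and ATF family proteins, to which CHOP belongs, for the C/EBP element TTGCNNAA, for the HNF4A core CAAAGTNCA, for the nuclear receptor half-site AGGTCA and for TATAAA. The first pair can share bases. The composite element was in 0 of the 8 windows, against 0.816% of 32841 promoter windows in the genome. The C/EBP element was in that of Apob alone (9.57% of all windows), the HNF4A core in that of Apoa4 alone, at position -182 (1.19%), the half-site in that of Apoc2 alone (14.0%), and TATAAA in those of Apoa2, Apoa5 and Apob (12.4%). Positions are counted from the RefSeq start, and the match in Apoa5 starts at -56. On this count the GENCODE start lies at -50 for Apoa1, -148 for Apoa4 and -29 for Apob. The windows of these genes thus run into the annotated gene. These are matches of letters in a window of fixed length. The GENCODE start of Mttp lies 1550 bases farther upstream than its RefSeq start, so its window lies inside the gene.

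With edgeR, no gene of the set passed the test for a difference between PiZ/Chop-/- and PiZ livers: 0 of the 9 tested genes had a Benjamini-Hochberg adjusted p below 0.05. Over all 8669 tested genes 1.03% passed, 0.335% higher and 0.692% lower in PiZ/Chop-/-. In the set 3 (Apoa5, Apoc3 and Apoa1) had an unadjusted p below 0.05, against 13.1% of all. With DESeq2 1 of them passed (Apoa5), against 2.01% of 10343 genes, and with limma-voom 0, against 0.831% of 8669. Of the 9 fold changes 7 were above 0, with a median of 0.34, while the median over all tested genes was -0.0016 and 49.8% of them were above 0 and 50.2% below. Without PiZ libraries 1 and 4 the median of the set was 0.22. That joint omission was chosen after the data were seen. These libraries had the lowest summed levels of the set (30811 and 32059 CPM). Leaving them out raises the PiZ level of the set, so this value is no independent check. The values given below for single genes without both libraries share this limit.

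**Figure D1:**
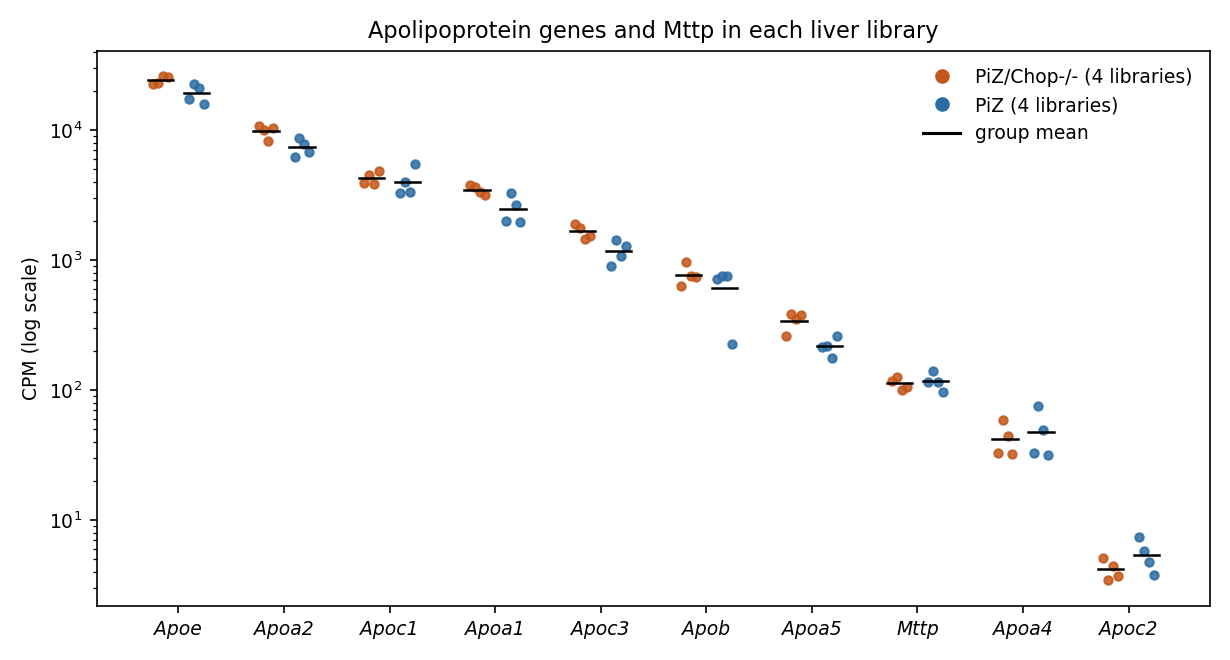
CPM on a log axis of each gene of the set in the 4 PiZ/Chop-/- libraries (orange, left) and the 4 PiZ libraries (blue, right); the black line is the group mean. Apoe stands highest, at 15905 to 26176 CPM, the few counts of Apoc2 are no measure of its level, and PiZ library 4 lies far below the others for Apob (227 CPM).

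Summed over the 10 genes, the level was 44134, 44783, 44366 and 47146 CPM in the PiZ/Chop-/- libraries and 30811, 41597, 37216 and 32059 CPM in the PiZ libraries. The groups did not overlap, with means of 45107 ± 1385 CPM in PiZ/Chop-/- and 35421 ± 4964 CPM in PiZ (SD, n = 4 each). Apoe alone supplied 54.3% ± 3.54 of the counts of the set in PiZ/Chop-/- livers and 54.3% ± 3.23 in PiZ livers. Without Apoe the groups overlapped, with 18191 to 21547 CPM in PiZ/Chop-/- and 13530 to 18725 CPM in PiZ. As a share of all counts, with no further scaling, the set took 4.00% to 4.78% in PiZ/Chop-/- libraries and 3.04% to 4.06% in PiZ libraries, which also overlap.

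Apoa1 and Apoa2 encode the main structural proteins of HDL. Apoa1 (ENSMUSG00000032083, chr9:46228580-46230466, plus strand) had 3811, 3634, 3364 and 3154 CPM in the PiZ/Chop-/- libraries, against 1993, 3319, 2644 and 1968 CPM in the PiZ libraries. PiZ library 2 lay inside the range of the PiZ/Chop-/- libraries and the other PiZ libraries lay below it. Apoa1 had a log2 fold change of 0.49 (SE 0.21, 95% interval 0.046 to 0.94, adjusted p = 0.337, edgeR), and 0.23 without PiZ libraries 1 and 4. Apoa2 (ENSMUSG00000005681, chr1:171225054-171226379, plus strand) had 10825, 10014, 8204 and 10435 CPM in PiZ/Chop-/- livers and 6266, 8748, 7914 and 6796 CPM in PiZ livers. Here PiZ/Chop-/- library 3 lay among the PiZ values. For Apoa2 the log2 fold change was 0.41 (SE 0.20, 95% interval -0.0093 to 0.83, adjusted p = 0.389), and 0.25 without PiZ libraries 1 and 4.

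Apoc3, Apoa5 and Apoa4 lie beside Apoa1 and encode proteins that act on triglyceride-rich particles: apolipoprotein C-III slows their breakdown by lipoprotein lipase, apolipoprotein A-V promotes it, and apolipoprotein A-IV is made in response to fat. Apoa5 (ENSMUSG00000032079, chr9:46268633-46271919, plus strand) had 262.5, 385, 353 and 376 CPM in the PiZ/Chop-/- libraries and 217, 219, 176 and 262.0 CPM in the PiZ libraries. The groups did not overlap, but PiZ/Chop-/- library 1 and PiZ library 4 were nearly level. Their order rests on the scaling factors. As raw counts they had 565 of 2375907 and 552 of 1937449, by which PiZ library 4 was the higher and the groups overlapped. The log2 fold change of 0.66 (SE 0.19, 95% interval 0.25 to 1.06) was the largest of the set, at an adjusted p of 0.136 with edgeR. The threshold was passed with DESeq2 (adjusted p = 0.0386) and without PiZ library 4 (0.77, adjusted p = 0.0489); over all alternatives adjusted p ran from 0.0386 to 0.325.

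Apoc3 (ENSMUSG00000032081, chr9:46232933-46235636, minus strand) had 1909, 1782, 1469 and 1543 CPM in PiZ/Chop-/- livers, against 905, 1424, 1087 and 1290.4 CPM in PiZ livers. Every PiZ/Chop-/- library was above every PiZ library, and the gap between the nearest values was narrow. Its log2 fold change came to 0.51 (SE 0.20, 95% interval 0.086 to 0.93, adjusted p = 0.292, edgeR). Apoa5 and Apoc3 were the 2 of 9 tested genes whose groups did not overlap, against 7.88% of all tested genes (3.66% higher and 4.22% lower in PiZ/Chop-/-).

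Apoa4 (ENSMUSG00000032080, chr9:46240696-46243459, plus strand) was the least abundant tested gene of the set, with a coefficient of variation of 30.0% in PiZ/Chop-/- livers and 43.3% in PiZ livers. It had 33.0, 59.2, 44.2 and 32.1 CPM in PiZ/Chop-/- libraries and 33.2, 76.3, 49.5 and 31.8 CPM in PiZ libraries. The highest value of each group was in its library 2, and the range of the PiZ/Chop-/- libraries lay within that of the PiZ libraries. Apoa4 had a log2 fold change of -0.19 (SE 0.29, 95% interval -0.81 to 0.43, adjusted p = 0.831), and -0.58 without PiZ libraries 1 and 4. With 1 library left out it ran from -0.39 (without PiZ/Chop-/- library 2) to 0.13 (without PiZ library 2). Of its last exon, 632 of 1181 bases are also annotated to Gm10680 on the other strand, which had 0 counts in all libraries.

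**Figure D2:**
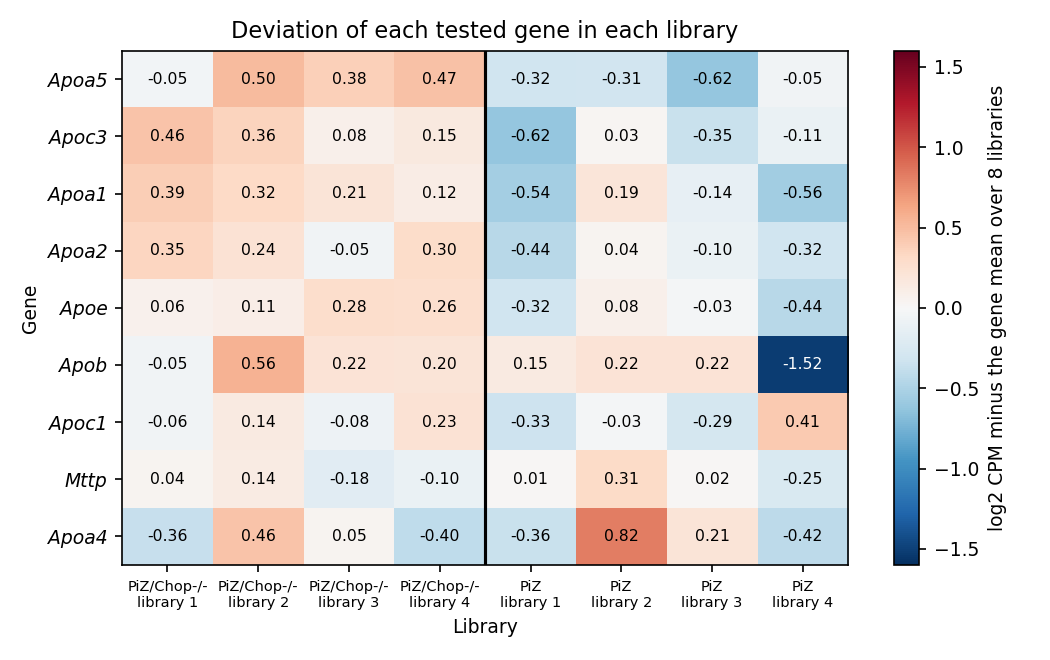
Each cell is the log2 CPM of a gene in a library minus the mean of that gene over all 8 libraries, for the 9 tested genes (down) and the libraries (across), with PiZ/Chop-/- left of the line and PiZ right of it. Apoa5, Apoc3 and Apoa1 are mostly red on the left, PiZ libraries 1 and 4 are blue for most genes, and Apob in PiZ library 4 is the deepest cell at -1.52.

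Apob and Mttp serve the assembly of VLDL itself. Apob (ENSMUSG00000020609, chr12:7977648-8016835, plus strand) had 630.0, 962, 763 and 750.4 CPM in PiZ/Chop-/- livers, against 723, 757, 758 and 227 CPM in PiZ livers. PiZ library 4 stood far below every other library, at 479 raw counts, and the other 3 PiZ libraries lay within the PiZ/Chop-/- range. The log2 fold change of 0.33 (SE 0.31, 95% interval -0.35 to 1.01, adjusted p = 0.702) came to 0.074 without PiZ library 4 and to 0.22 without PiZ/Chop-/- library 2. In PiZ library 4 Apoc1 was at its highest of all 8 libraries.

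Mttp (ENSMUSG00000028158, chr3:138089854-138144968, minus strand) had 118, 126, 101 and 107 CPM in the PiZ/Chop-/- libraries and 116, 142, 116 and 96.3 CPM in the PiZ libraries. The groups overlapped. For Mttp the difference was -0.058 on the log2 scale (SE 0.18), and its 95% interval of -0.44 to 0.32 sets the size of difference that these libraries leave unresolved (adjusted p = 0.925, edgeR). It was 0.048 without PiZ library 2, -0.13 without PiZ library 4 and -0.19 without PiZ libraries 1 and 4. Mttp took a share of the counts of the set of 0.251% ± 0.0277 in PiZ/Chop-/- livers and 0.332% ± 0.0333 in PiZ livers (SD, n = 4 each). This share also moves with the summed level of the set, which averaged 45107 CPM in PiZ/Chop-/- and 35421 CPM in PiZ. Mttp itself averaged 113 and 118 CPM.

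Apoe, Apoc1 and Apoc2 sit side by side on chromosome 7. Apolipoprotein E is the ligand by which remnant particles are taken up, apolipoprotein C-I hinders that uptake, and apolipoprotein C-II is the required activator of lipoprotein lipase. Apoe (ENSMUSG00000002985, chr7:19696109-19699188, minus strand) ranked 5 among all genes by mean level, with 22587, 23292, 26176 and 25908.5 CPM in PiZ/Chop-/- livers and 17281, 22872, 21094 and 15905 CPM in PiZ livers. Only PiZ library 2 reached the PiZ/Chop-/- range. Its log2 fold change was 0.34 (SE 0.20, 95% interval -0.077 to 0.77, adjusted p = 0.486), and 0.16 without PiZ libraries 1 and 4.

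Apoe is also made by macrophages, so their markers are given beside it. The 16 macrophage markers summed to 860 to 1008 CPM in PiZ/Chop-/- libraries and to 1115 to 1590 CPM in PiZ libraries; 0 of 13 tested ones passed, 12 had fold changes below 0 and no marker was without counts in all libraries. The 12 sinusoidal endothelial markers summed to 501 to 540.3 CPM in PiZ/Chop-/- and to 365 to 448 CPM in PiZ, and 9 of 12 were above 0, none past the threshold. The 12 stellate cell markers summed to 321 to 461 CPM in PiZ/Chop-/- and to 442 to 545 CPM in PiZ, and 8 of 8 tested ones were below 0, none past the threshold. The part of these cells in the level of Apoe was not tested. The sums of the 11 hepatocyte markers overlapped, at 78288 to 89451 CPM in PiZ/Chop-/- and 81734 to 93679 CPM in PiZ (median log2 fold change -0.013). Of these markers 5 were above 0 and 6 below, none past the threshold. Groups did not overlap for 1 of the 11, Ahsg, against 7.88% of all tested genes. Ahsg was lower in PiZ/Chop-/- (log2 fold change -0.50, adjusted p = 0.287, edgeR). In bulk liver, fewer cells of a type and less RNA per cell cannot be told apart.

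Apoc1 (ENSMUSG00000040564, chr7:19689481-19692660, minus strand) had 3954, 4525, 3887 and 4836 CPM in PiZ/Chop-/- livers, against 3269, 4034, 3371 and 5479 CPM in PiZ livers. PiZ library 4 was the highest of the 8 and the groups overlapped. Apoc1 had a log2 fold change of 0.091 (SE 0.21, 95% interval -0.36 to 0.54, adjusted p = 0.899), and ran from 0.0037 (without PiZ library 1) to 0.29 (without PiZ library 4) with 1 library left out.

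Apoc2 (ENSMUSG00000002992, chr7:19671579-19677941, minus strand) had 11, 6, 9 and 8 counts in the PiZ/Chop-/- libraries and 12, 12, 15 and 8 counts in the PiZ libraries. With so few counts Apoc2 did not pass the filter of the main test. Its immediate neighbour Apoc4 stood at 1439 ± 335 CPM in PiZ/Chop-/- livers and 1279 ± 150.5 CPM in PiZ livers (SD, n = 4 each). In the mm10 annotation 646 of the 813 exonic bases of Apoc2 (79.5%) also belong to Gm44805, a gene on the same strand that starts within Apoc4 and runs through Apoc2. Of the 270 bases of the last exon of Apoc2, where reads of this method fall (chr7:19671579-19671848), 265 are shared, and Gm44805 had 0 counts in all 8 libraries. Counters can set aside reads that match more than one gene. No source used here says whether the authors' counting did so, and its part in the low counts of Apoc2 was not tested, so these counts are no measure of the level of the transcript.

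**Figure D3:**
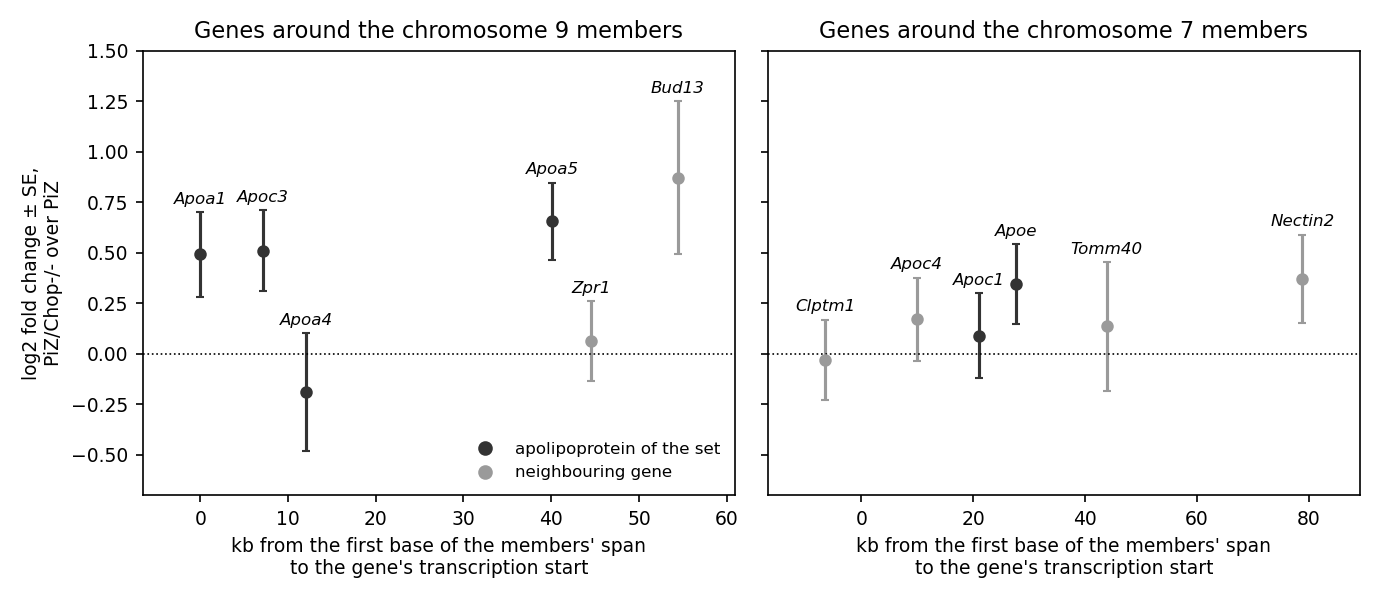
Log2 fold change (PiZ/Chop-/- over PiZ, bars ± SE) against the distance in kb from the first base of the span of the set to each transcription start, on chromosome 9 (left panel) and chromosome 7 (right panel). Dark points are genes of the set and grey points are tested neighbours with a base within 60 kb of the span; Sik3 (0.27), which starts farther off, is not drawn. Apoa4 at -0.19 lies between Apoc3 at 0.51 and Apoa5 at 0.66.

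Within the chromosome 9 cluster the fold changes were 0.49 (Apoa1), 0.51 (Apoc3), -0.19 (Apoa4) and 0.66 (Apoa5), and the next genes, Zpr1 and Bud13, had 0.064 and 0.87 (adjusted p = 0.926 and 0.341). On chromosome 7, Apoc4, Apoc1 and Apoe had 0.17, 0.091 and 0.34, and the flanking Clptm1, Tomm40 and Nectin2 had -0.029, 0.14 and 0.37. Apoc4 had 0.024 without PiZ/Chop-/- library 1 and 0.30 without PiZ/Chop-/- library 3. None of these genes passed the test, and differences between neighbours were not tested.

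The other genes of lipoprotein handling gave the same count. Of 81 such genes 75 were tested and 0 passed with edgeR. An unadjusted p below 0.05 was found for 11 (14.7%), near the 13.1% of all tested genes. Of the 75, 2 passed with DESeq2 (Lrp1 and Ces1d) and 0 with limma-voom. Fold changes were above 0 in 47 and below 0 in 28. By role, the median was 0.18 over 12 other apolipoproteins and lipoprotein-bound proteins, -0.0072 over 22 genes of VLDL assembly, -0.069 over 9 genes of HDL formation and lipases, 0.0085 over 9 receptors and their regulators, and 0.21 over 23 transcriptional regulators. Groups did not overlap for 5 of the 75 (6.67%), a share no higher than the 7.88% of all tested genes: Lrp1, Xbp1, Cideb and Ces3a, higher in PiZ/Chop-/-, and Surf4, lower. For Cideb and Ces3a this rests on the scaling factors. As raw counts, Cideb had 405 of 1850275 in PiZ/Chop-/- library 2 and 452 of 1937449 in PiZ library 4. Ces3a had 2608 of 2020326 in PiZ/Chop-/- library 3 and 2568 of 1937449 in PiZ library 4. In both cases PiZ library 4 had the higher share, and the groups overlapped.

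Among the VLDL assembly genes, the carboxylesterase Ces1d, which mobilises stored triglyceride, had 29.7, 46.6, 60.6 and 75.0 CPM in PiZ/Chop-/- livers and 14.1, 11.2, 24.1 and 37.0 CPM in PiZ livers. With edgeR the difference was 1.28 on the log2 scale (SE 0.37, adjusted p = 0.151), with adjusted p of 0.0438 by DESeq2, 0.000108 with no filter on low counts and 0.0264 without PiZ library 4. Surf4, a cargo receptor for export of lipoproteins from the ER, had 214, 286, 188 and 227 CPM in PiZ/Chop-/- and 338, 295, 341 and 476 CPM in PiZ. The groups did not overlap, and the difference was -0.67 on the log2 scale (SE 0.20; adjusted p = 0.160). P4hb, protein disulphide isomerase, is the other subunit of the complex that Mttp forms. It had 1186 ± 71.7 CPM in PiZ/Chop-/- and 1653 ± 436 CPM in PiZ (SD, n = 4 each; log2 fold change -0.48, adjusted p = 0.341). Without PiZ library 4 it had -0.27. Cideb, which enlarges VLDL with lipid, and Ces3a had 0.47 and 0.58 (adjusted p = 0.304 and 0.376). Ces3a had 0.34 without PiZ library 1, which stood at 428 CPM. P4hb, Cideb, Ces3a, Apoc4 and Hnf4a were named after their values were seen.

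**Figure D4:**
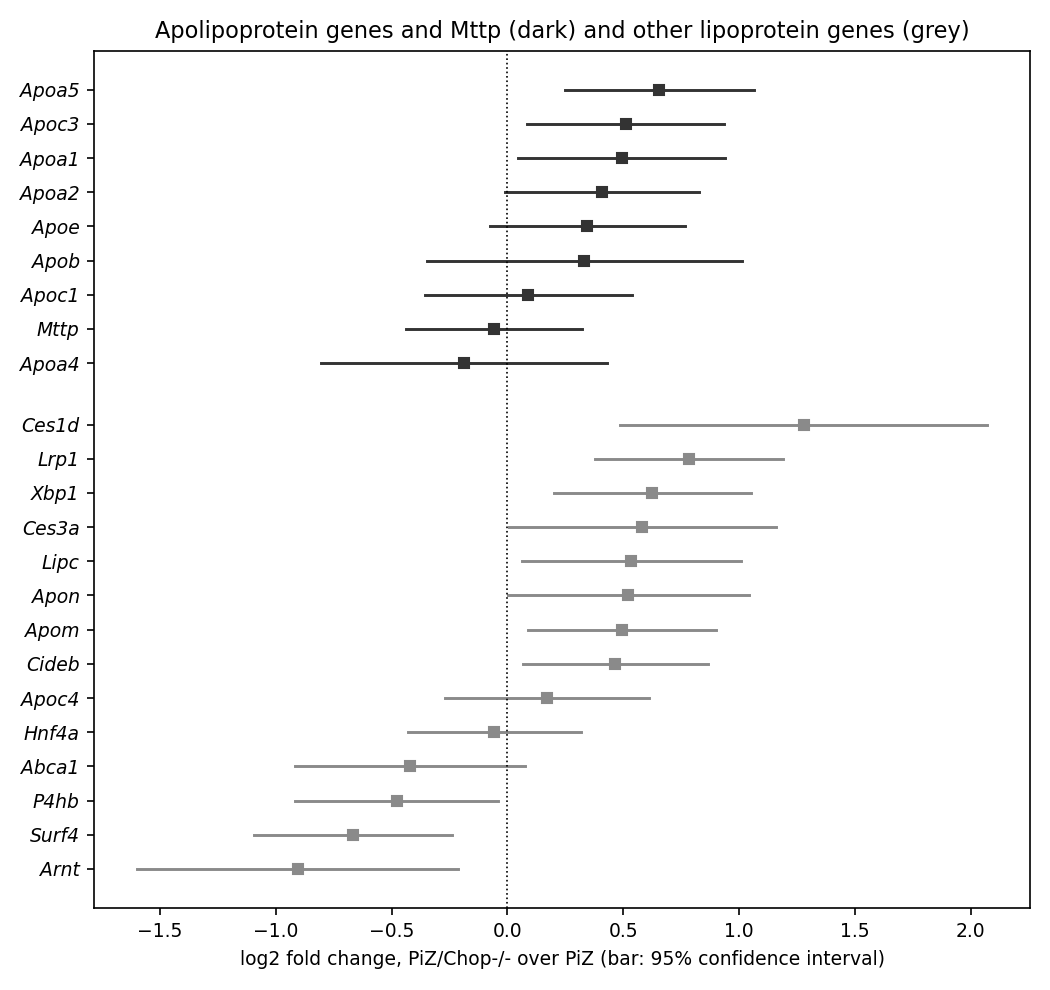
Log2 fold change (PiZ/Chop-/- over PiZ, squares) with its 95% confidence interval (bars) for the 9 tested genes of the set (dark) and 14 named genes of lipoprotein handling (grey). The intervals of Apoa5, Apoc3 and Apoa1 lie above 0 before adjustment for the number of genes tested, and none of them passed after it.

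Of the receptors, Lrp1, which takes up remnants carrying apolipoprotein E, had 229, 160, 243 and 178 CPM in PiZ/Chop-/- livers and 142, 108, 107 and 113 CPM in PiZ livers. Every PiZ/Chop-/- library was above every PiZ library. The fitted difference between the group means was 0.78 on the log2 scale (SE 0.19), at an adjusted p of 0.0670 with edgeR. The threshold was passed with DESeq2 (adjusted p = 0.00927), with no filter (0.0160) and without PiZ/Chop-/- library 2 (0.0347). Lrp1 lies 241.9 kb from the deleted gene Ddit3 on chromosome 10, where the apolipoprotein genes Apon and Apof lie 957.8 and 972.4 kb from it. Apon had 0.52 (adjusted p = 0.380), or 0.83 (adjusted p = 0.0448) without PiZ library 4, and Apof had -0.15 (adjusted p = 0.827). The part of that position was not tested. Apof was named after its values were seen.

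Of the remaining lists, Apom, a carrier on HDL, had 0.50 (SE 0.19, adjusted p = 0.286). Hepatic lipase, Lipc, had 0.53 (adjusted p = 0.321) and Abca1, which loads lipid onto apolipoprotein A-I, -0.42 (adjusted p = 0.465). Among the regulators, Xbp1, which drives ER chaperone and secretory genes, had 136, 147, 125 and 207 CPM in PiZ/Chop-/- and 78.7, 99.1, 108 and 112 CPM in PiZ (0.63 on the log2 scale, SE 0.20; adjusted p = 0.189), and Arnt had -0.91 (adjusted p = 0.253). Hnf4a, the nuclear receptor that drives many apolipoprotein genes in hepatocytes, stood at 157 ± 21.1 CPM in PiZ/Chop-/- livers and 163 ± 21.1 CPM in PiZ livers (SD, n = 4 each; log2 fold change -0.056, 95% interval -0.43 to 0.32). With 1 library left out Hnf4a ran from -0.14 (without PiZ/Chop-/- library 3) to 0.0045 (without PiZ/Chop-/- library 1).

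Markers of enterocytes, the other main source of apolipoproteins, were near 0. Cdx1, Lct, Alpi, Rbp2 and Krt20 had 0 counts in all 8 libraries, and Cdx2, Vil1 and Slc5a1 had at most 2 counts in any. Fabp2 was the marker with enough counts to be tested, at 21.0 ± 5.47 CPM in PiZ/Chop-/- and 12.8 ± 3.35 CPM in PiZ (SD, n = 4 each; log2 fold change 0.70, adjusted p = 0.304, edgeR).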

How the data were processed

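Livers of 2 genotypes (4 libraries each, grouped by sample title) were compared. Per the file headers, the authors deposited raw read counts for each gene, with no normalization. The submitters' processing notes name STAR, HTSeq and mm10, without versions. The annotation, the strand setting and the treatment of reads matching several genes or of PCR copies were not stated in any source used here. Whether the counts include PCR copies is thus not known. Symbols and positions came from GENCODE mouse M21, which held 52403 of 52550 mouse gene IDs; the remaining row was SERPINA1.

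The test was edgeR's quasi-likelihood test (version 4.0.16, R 4.3.3): filterByExpr (minimum count 10), TMM scaling, a robust fit, Benjamini-Hochberg adjustment over 8669 genes and a threshold of 0.05. The SE is the size of the log2 fold change divided by the square root of F, and 95% intervals use the degrees of freedom of the fit. The procedure was also run on simulated counts, with an outcome that is not given here. Alternatives used DESeq2 1.42.0, limma-voom (limma 3.58.1), other scalings and filters on low counts, a replicate block and each library left out. The joint omission of PiZ libraries 1 and 4 was chosen after seeing the data. The genes and lists were chosen with earlier results of these data known. Besides the set, the 2 genes of lowest p in each list were named; 1 of these is not reported here. No library duplicated another: chi-square per degree of freedom between replicates was 5.43 to 28.0.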

Additional observations from a re-analysis of the deposited data

Results flagged for a closer look

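Across 50 sets of 4 values (each named gene, and the sum over the apolipoprotein set, in each genotype), 3 held a library far from the other 3; chance alone gives about 1 in 20. Apob in PiZ library 4, at 227 CPM, was the lowest of its group by a gap of 0.934 of the group's range. Apom in PiZ/Chop-/- library 3, at 239 CPM, lay below the other 3 libraries of its group (gap 0.860 of the range), and Apom in PiZ library 2, at 270.1 CPM, lay above the other 3 of its group (0.858).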

How the results depend on the processing

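Over 19 alternatives, 461 of 475 values of 25 named genes kept their direction and their side of the threshold. Of these genes, all but Ddit3 and SERPINA1 missed the threshold in the main test. Missing it again, as in fits with fewer libraries, says little about stability. DESeq2 called 208 genes in all, 1 of the apolipoprotein set (Apoa5) and 2 other lipoprotein genes (Lrp1 and Ces1d), and no filter on low counts called 357 genes, with 0 of the set and 2 others. The replicate number did not pair the libraries (correlations of -0.051 to 0.049 between same-numbered deviations; libraries did not all correlate best with their own number), and the replicate block gave 76 genes in all, 0 of the set and 1 other (Ces1d, adjusted p = 0.0212). With 1 library left out, the count over all genes ran from 46 to 169 (89 with all 8), that of the set from 0 to 1 (Apoa5, without PiZ library 4) and that of other lipoprotein genes from 0 to 2 (Apon at adjusted p = 0.0448 and Ces1d without PiZ library 4, Lrp1 without PiZ/Chop-/- library 2). The direction turned for Apoa4 (0.13) and Mttp (0.048) without PiZ library 2 and for Hnf4a (0.0045) without PiZ/Chop-/- library 1; with 1 library left out these log2 fold changes ran from -0.39 to 0.13, from -0.13 to 0.048 and from -0.14 to 0.0045. SERPINA1, the transgene, missed the threshold without PiZ/Chop-/- library 3 (adjusted p = 0.0575). The median of the set ran from 0.22 to 0.45 over all alternatives. The cause of these changes was not tested. The filter on low counts left Apoc2 out of the main test. It entered the fit with no filter, where 0 of the set passed.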

Other observations

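The coefficient of variation was smaller in PiZ/Chop-/- than in PiZ livers for 8 of the 9 tested genes of the apolipoprotein set, with medians of 11.7% and 19.4%; over all tested genes it was smaller in PiZ/Chop-/- for 55.7%. Without PiZ library 4 it was smaller for 7 of the 9, against 41.4% of all tested genes. Leaving out PiZ library 1 instead gave 9 of 9, against 51.7%. Without PiZ libraries 1 and 4 it was smaller for 5 of the 9, against 27.7% of all tested genes. Only PiZ libraries 2 and 3 remained there, against 4 PiZ/Chop-/- libraries, so the spreads compared rest on unequal numbers of libraries. The difference in spread was not tested.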
